A study of Mus musculus with 12 samples.

Results

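MicroRNA genes whose probesets gave a signal in mouse pancreas numbered 78, out of 172 microRNA genes with values here. The values used covered 16378 probesets, fewer than the study's own count, and all 78 genes lay on chromosomes 1 and 10 to 15. Counts and shares of microRNA genes and of all genes below refer to these values and not to the whole array. They were chosen by their measured level, as every microRNA gene with a mean log2 value of 4 or more over the 3 arrays of at least 1 group, and Mir216a, Mir216b and Mir217 were left out. A high level in some group is therefore no result here, and the levels are given as a description. Of the 78 genes, 62 reached the limit in all 4 groups, 6 in 3 groups, 6 in 2 groups and 4 in a single group. The genes just inside the limit were Mir687, Mir763 and Mirlet7b, whose highest group means were 4.004, 4.007 and 4.010. Those just outside were Mir128-1, Mirlet7c-2 and Mir135b, at 3.96, 3.95 and 3.95.

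The study compared the pancreas of an obese, insulin-resistant inbred mouse strain, KK/HlJ, with that of C57BL/6 J mice. Its 4 groups were the males and females of KK/HlJ (KK-M and KK-F) and of C57BL/6 J (C57-M and C57-F), and the labels state an age of 21 weeks where the study's methods state 20 weeks. Mice of all groups ate standard chow, went through insulin tolerance and behavioural tests, and were anaesthetized with xylazine and ketamine. Pancreatic RNA of the 18 mice of a group went into 1 pool, and each pool was hybridized to 3 arrays (GeneChip Mouse Gene 2.0 ST). Each SD, standard error and p below therefore covers differences among arrays hybridized with the same pool, while the variation from mouse to mouse was not measured. Set 1 is KK-M against C57-M, Set 2 is KK-M against KK-F, Set 3 is KK-F against C57-F, and Set 4 is C57-M against C57-F. A gene was called when its fold change was at least 1.4 and its adjusted p in limma, a linear model fitted to all genes at once, was under 0.05.

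MicroRNAs are cut from longer transcripts, first in the nucleus by Drosha into a hairpin and then in the cytoplasm by Dicer into a short duplex. A strand of the duplex, loaded into an Argonaute protein, pairs through its seed, bases 2 to 8, with messenger RNAs that are then repressed or degraded. In the pancreas, miR-375 is known as a regulator of insulin secretion in islet cells, and miR-142 is known from blood cells. The array was hybridized with labelled total RNA, and its probesets are assigned to microRNA genes, so a value stands for labelled RNA that bound the probes and not for the amount of the mature microRNA. Which bases the probes cover, and whether those bases differ between KK/HlJ and C57BL/6 J, was not analysed here, so the strain differences below are differences in hybridization signal.

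Of the 78 genes, 12 (15.4%) were called in at least 1 Set or for the interaction, as were 17.3% of all genes tested, and 9 of the 12 have a mature sequence in RefSeq (GRCm38.p6). Those sequences identify what the called hairpins encode, with the seed in capitals. Both arms are given for Mir3070b because its near-identical neighbour Mir3070a is compared with it. The line mmu-miR-3070-3p is the 3p arm of Mir3070a, which was called in no comparison, and mmu-miR-3070-2-3p is that of Mir3070b.
mmu-miR-5104: cUGUGCUAgugagguggcucagca
mmu-miR-142a-5p: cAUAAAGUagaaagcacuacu
mmu-miR-142a-3p: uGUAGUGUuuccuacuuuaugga
mmu-miR-3070-5p: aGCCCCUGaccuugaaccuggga
mmu-miR-3070-2-3p: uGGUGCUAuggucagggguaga
mmu-miR-3070-3p: uGGUGCUAccgucagggguaga
mmu-miR-181b-5p: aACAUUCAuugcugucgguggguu
mmu-let-7a-5p: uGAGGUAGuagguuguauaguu
mmu-miR-5124a: gGUCCAGUgacuaagagcau
mmu-miR-1931: aUGCAAGGgcuggugcgauggc
mmu-miR-340-5p: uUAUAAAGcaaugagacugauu
mmu-miR-615-3p: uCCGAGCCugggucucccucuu

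On GRCm38.p6, the mature miR-5104 lies at chr10:7836441-7836464 on the plus strand, within the span of the gene Zc3h12d. The 3p arm of miR-142a lies at chr11:87756903-87756925 and miR-5124a at chr13:40865801-40865820, the latter within Gcnt2. The Mir3070b arms lie at chr12:109588608-109588630 and chr12:109588648-109588669, in the imprinted Dlk1-Dio3 domain. Mir3070a encodes the same 5p arm, and its 3p arm differs from that of Mir3070b at 2 of 22 bases outside the seed. None of the 9 called genes shares a seed with another of them.

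Among the 71 members with a mature sequence, 121 mature sequences carried 114 different seeds, and 6 seeds were shared by more than 1 gene. The let-7 seed joined Mirlet7a-1, Mirlet7b and Mirlet7i. The seed of miR-15a and miR-16, a pair known for repressing the survival gene Bcl2, joined Mir15a and Mir16-1, and the seed of the miR-148 and miR-152 family joined Mir148b and Mir152. These lines show the let-7 and miR-15 members that stand beside the called Mirlet7a-1 or at the top of the levels.
mmu-let-7b-5p: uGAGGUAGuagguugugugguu
mmu-let-7i-5p: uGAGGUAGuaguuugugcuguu
mmu-miR-15a-5p: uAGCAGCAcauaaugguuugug
mmu-miR-16-5p: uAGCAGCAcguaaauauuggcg

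The genes lay on chromosome 12 (25 genes), 11 (12), 10 (11), 1 (10), 13 (7), 14 (7) and 15 (6). Because the values covered only part of the study's probesets, these counts do not describe how detected microRNA genes spread over the genome. Mean log2 values over the 12 arrays exceeded 11 for 2 genes, lay between 6 and 8 for 11, between 4 and 6 for 59 and under 4 for 6. The spread between arrays of a group was wider than for other genes, with a median SD of 0.24 against 0.16 over all 5399 genes tested. Replicate 1 of C57-M and of KK-F differed most from its group, the SD over probesets being 1.79 and 1.85 there and 1.92 to 1.97 elsewhere. The acinar genes tested, Rnase1 and Nr5a2, had a mean log2 value of 10.7 to 11.7 on every array, so RNA of exocrine pancreas was present throughout.

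Of the 10 genes with the highest values, Mir5099 alone was called. Mir449b had log2 values of 12.06 ± 0.14 in C57-F and 11.66 ± 0.68 in C57-M, with 11.41 ± 0.28 in KK-F and 11.65 ± 0.06 in KK-M (SD, n = 3 arrays). All 3 KK-F arrays, at 11.09 to 11.60, lay below the 3 C57-F arrays, at 11.89 to 12.16, but the difference in Set 3 was not called (log2 difference -0.65, standard error 0.22, adjusted p = 0.0873). With C57-M replicate 3 left out of the fit, the same difference was called (adjusted p = 0.0488). Its cluster mates Mir449a and Mir449c, which lie beside it in Cdc20b and are known from ciliated epithelia, reached no group mean of 4. Cdc20b itself had group means of 4.23 to 4.30 and differed by 0.07 in Set 3, without a call. Mir673, Mir3058, Mir1938, Mir375, Mir5135, Mir15a, Mir194-1 and Mir16-1, with 12-array means from 6.34 to 7.43, were called in no comparison. Mir5099, the other gene above 11, is described with the males.

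In females, strain differences were called for 6 of the 78 genes (7.69%), where 11.7% of all genes tested were called in Set 3. Mir5104, Mir142 and Mir3070b were lower in KK-F, and Mir181b-1, Mirlet7a-1 and Mir874 were higher. Each direction thus held 3.85% of the members, where 8.09% of all genes were lower and 3.56% higher. The 3 arrays of each group lay apart for all 6, as they did for 18 of the 78 genes (23.1%) and for 33.7% of all genes. Less RNA per cell and fewer cells of a type cannot be told apart in such bulk samples.

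Mir5104 had the widest difference in females. Its log2 values were 4.19, 4.66 and 4.06 in KK-F and 5.21, 5.48 and 5.49 in C57-F. They were 4.92, 4.83 and 4.89 in KK-M and 4.28, 4.27 and 5.07 in C57-M. C57-F was thus the highest group and lay above all 9 other arrays, while C57-M was split between replicate 3 and the other 2 arrays. Mir5104 fell by 1.08 on the log2 scale in KK-F against C57-F (standard error 0.18, adjusted p = 0.000454), and this call held in every alternative that gave it a value, from -1.26 to -0.96. It was also lower in C57-M than in C57-F (log2 difference -0.85, adjusted p = 0.00465), a call that ended without both arrays that stood apart (-0.72) and without moderated variances.

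Mir3070b gave the other call that held in every alternative that gave it a value. Its log2 values were 4.15, 4.43 and 4.62 in KK-F against 4.98, 5.11 and 5.34 in C57-F, and 4.57, 4.45 and 4.96 in KK-M against 4.88, 5.13 and 4.98 in C57-M. It fell by 0.74 in KK-F (standard error 0.15, adjusted p = 0.00244), with -0.85 to -0.62 over the alternatives. In males the difference had the same sign but was not called (-0.34, interval -0.65 to -0.03), and the strain difference itself was not shown to differ between the sexes (interaction 0.41, adjusted p = 0.278). The neighbouring Mir3070a, whose hairpin is identical to that of Mir3070b at 84 of 89 aligned bases, differed by 0.02 in Set 3 (interval -0.26 to 0.29). With hairpins so alike, signal from each gene could reach the probes of the other, which was not tested.

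Mir142, which in mice and humans is expressed across blood cells, had log2 values of 4.65, 5.30 and 5.06 in KK-F and 5.84, 5.46 and 5.43 in C57-F. Values were 4.77 to 5.18 in KK-M and 4.84 to 5.08 in C57-M, so that the 3 C57-F arrays lay above the other 9. It fell by 0.57 in KK-F against C57-F (adjusted p = 0.0287) and by 0.59 in C57-M against C57-F (adjusted p = 0.0244). In males the strains differed by 0.01 (interval -0.32 to 0.35). The call in females was lost without C57-F replicate 1, KK-F replicate 1 or KK-F replicate 3 (-0.60 to -0.40), and the call between C57BL/6 J sexes without C57-M replicate 3 or C57-F replicate 1 (-0.51 to -0.46). Both calls were also lost after median centring (-0.50 in Set 3 and -0.49 in Set 4) and after quantile normalization (-0.48 and -0.46), where the adjusted p was 0.0532 to 0.0729.

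Marker genes of blood cells moved with Mir142 and Mir5104. In Set 3, all 7 B cell genes tested were lower in KK-F, as were 3 of 4 T cell genes and 3 of 5 genes of leukocytes, macrophages and granulocytes. The mean log2 value of the B cell genes was 6.34 to 6.36 in KK-F, 6.49 to 6.65 in KK-M, 7.07 to 7.42 in C57-M and 7.83 to 8.04 in C57-F. In Set 4, 5 B cell, 3 T cell and 2 leukocyte genes were lower in C57-M. In Set 1, 5 B cell genes were lower in KK-M, no T cell gene was called and 1 leukocyte gene was higher. Neither Mir142 nor Mir5104 was called in that comparison. The part of these cells in the microRNA values was not tested.

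Markers of some other cell types moved in the same Sets. None of the 2 acinar, 4 duct and 3 muscle genes tested was called in Set 3, and 1 duct gene was higher in Set 4. All 4 genes tested of the adipocyte list, the lipid synthesis genes Acaca, Acly and Fasn and the glucose transporter Slc2a4, were lower in Set 3 (median log2 difference -1.10), and 2 were lower in Set 4. Their mean log2 value was 8.14 to 8.23 in C57-F and 6.83 to 7.49 on the other 9 arrays. Of 7 fibroblast and stellate cell genes, 3 were lower in Set 3 and 1 in Set 4. All 4 intestine genes, Vil1, Akp3, Alpi and Lyz1, went the other way, being higher in Set 3 (median 2.93), with 3 of them higher in Set 4. Their mean log2 value was 6.18 to 6.32 in C57-F, 7.53 to 7.87 in C57-M, up to 8.19 in KK-M and 8.87 to 9.10 in KK-F. For the interaction, 5 B cell, 3 T cell, 3 leukocyte, 5 fibroblast and 4 adipocyte genes were higher and 4 intestine genes were lower. C57-F was thus the highest group for the blood cell and adipocyte lists and the lowest for the intestine list, and the part of these cell types in the microRNA values was not tested either.

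**Figure D1:**
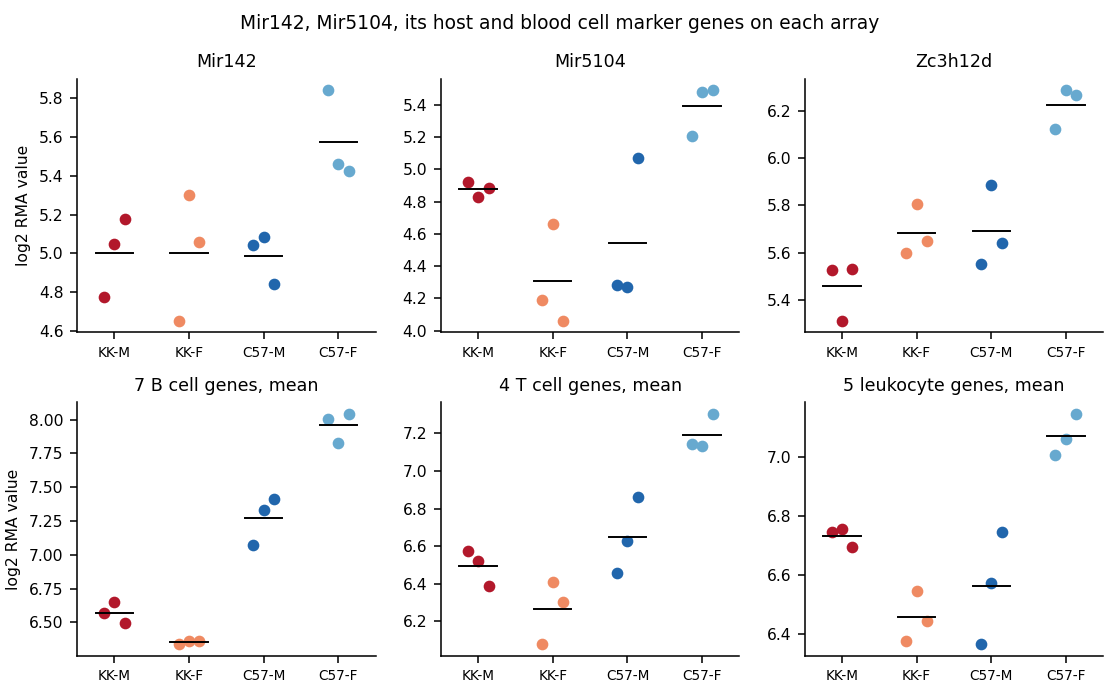
Log2 RMA values of Mir142, Mir5104 and its host gene Zc3h12d, and the mean log2 value of the 7 B cell, 4 T cell and 5 leukocyte marker genes tested. Points are arrays and lines are means of 3 arrays, and in each panel the 3 C57-F arrays are above all 9 other arrays.

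The 3 genes that were higher in KK-F had smaller margins. Mir181b-1, of a family known from lymphocyte development, had log2 values of 4.28, 4.11 and 4.60 in KK-F and 3.21, 3.59 and 3.68 in C57-F. Its Set 3 difference was 0.84 (standard error 0.25, adjusted p = 0.041), and in males it was 0.78 (adjusted p = 0.0598), a close value that was not called. Only the KK/HlJ groups had a mean of 4 or more (4.51 and 4.33, against 3.73 and 3.49), so that its higher value in KK/HlJ was a condition for its being listed. The C57-M arrays read 2.99, 3.69 and 4.52, the widest spread among the called genes. Without C57-M replicate 3 the male difference was 1.17 (adjusted p = 0.000369), and the same direction was then called in both sexes. The C57-M arrays kept in that fit include replicate 1, which differed most from its group. The Set 3 call was lost when any array was left out except C57-M replicates 1 and 3 and KK-F replicate 2 (0.70 to 0.93). With values below 4 set to 4 the difference was 0.33, since C57-F lay under that level.

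Mirlet7a-1 encodes let-7a, of a family known for repressing Lin28 and Hmga2. It read 5.09, 4.95 and 4.57 in KK-F and 4.23, 4.39 and 4.17 in C57-F, a difference of 0.60 (standard error 0.17, adjusted p = 0.0343). C57-F also lay below all 3 C57-M arrays, at 4.49 to 5.23, but Set 4 was not called (0.52, adjusted p = 0.0725) unless arrays were centred on their medians (0.62, adjusted p = 0.0439). In males the strains differed by 0.01 (interval -0.36 to 0.37). Leaving out C57-F replicate 1 or 3 or KK-F replicate 1 or 2 ended the call (0.49 to 0.58). The let-7 genes with the same seed were not called: Mirlet7i differed by 0.15 in Set 3 and Mirlet7b by 0.21.

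Mir874 read 6.13, 6.54 and 6.71 in KK-F and 5.90, 6.00 and 5.80 in C57-F, a difference of 0.56 (standard error 0.17, adjusted p = 0.0452). In males it read 5.70 to 6.27 in KK-M and 5.29 to 5.88 in C57-M, which overlap, and the difference of 0.40 was not called. The female call was lost without C57-M replicate 1, any C57-F array, KK-M replicate 3, or KK-F replicate 2 or 3 (0.44 to 0.61). Its host Klhl3, a subunit of a ubiquitin ligase, differed by -0.12 in Set 3.

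**Figure D2:**
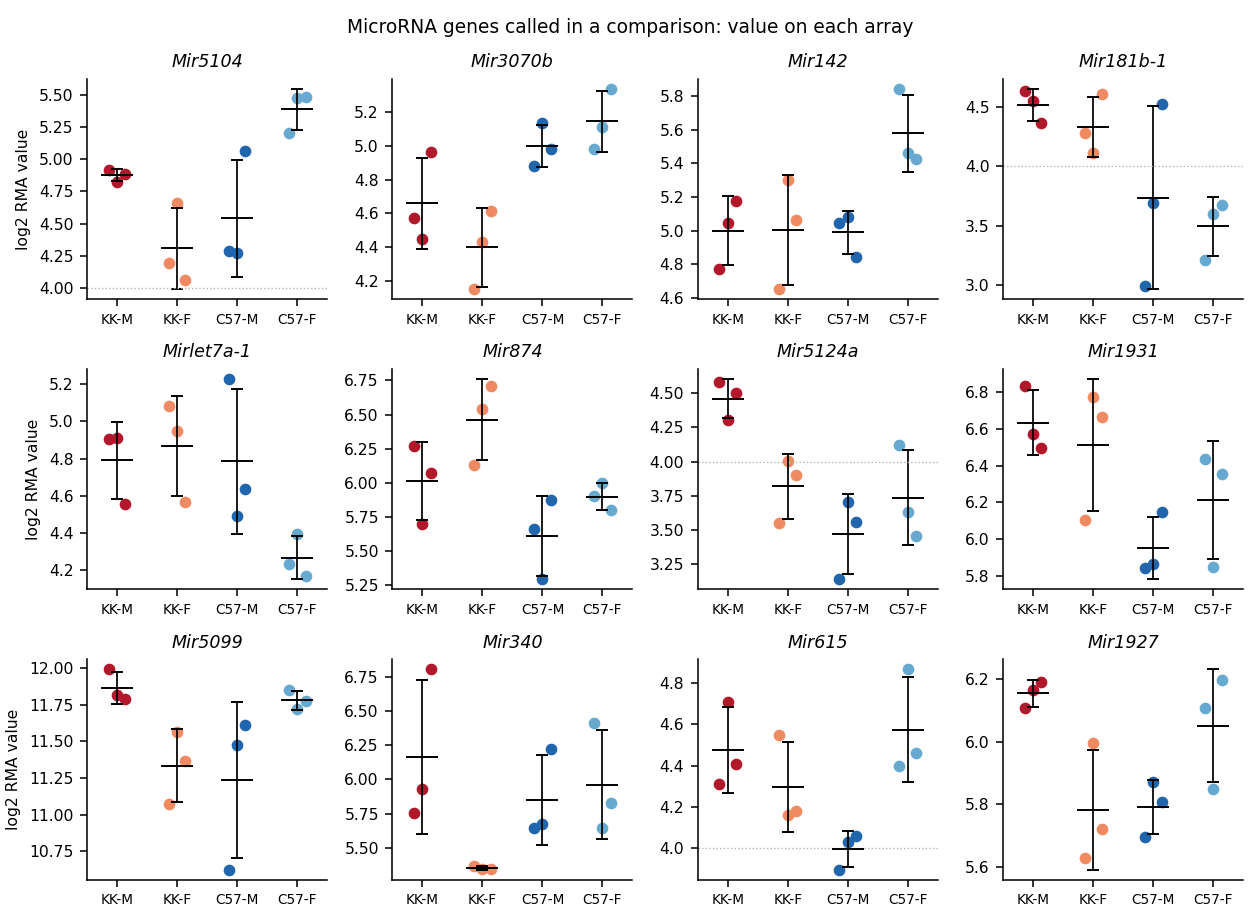
Log2 RMA values of the 12 microRNA genes called in a Set or for the interaction, with each array as a point and the mean and SD of the 3 arrays of each group in black. The dotted line is the level of 4 used to choose the genes, and each panel has its own axis. Mir5104 and Mir142 are highest in C57-F, and Mir5124a is highest in KK-M.

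In males, 3 of the 78 genes (3.85%) were called, all of them higher in KK-M, against 7.87% of all genes in Set 1. These were Mir5124a, Mir1931 and Mir5099. Of all genes, 5.39% were higher and 2.48% lower. Without C57-M replicate 3, 10 members were called (12.8%), 9 higher and 1 lower. Of all genes, 10.3% were called in that fit, 8.22% higher and 2.06% lower. It kept C57-M replicate 1, the array that differed most from its group. The arrays of KK-M and C57-M lay apart for 12 of the 78 genes (15.4%) and for 29.1% of all genes. No member was called in the same direction in Sets 1 and 3, which share no array, whereas 201 of all genes tested (3.72%) were.

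Mir5124a had log2 values of 4.58, 4.30 and 4.50 in KK-M and 3.14, 3.70 and 3.56 in C57-M. It read 3.55, 4.01 and 3.90 in KK-F and 4.12, 3.63 and 3.45 in C57-F. The 3 KK-M arrays lay above the other 9, and KK-M was the single group that brought the gene over the limit of 4, so its high value there was a condition for its being listed. The difference was 0.99 in Set 1 (standard error 0.17, adjusted p = 0.000619) and 0.64 in Set 2 (adjusted p = 0.0234), and in females the strains differed by 0.08 (interval -0.28 to 0.45). Because the levels lie near 4, setting lower values to 4 reduced the differences to 0.46 in Sets 1 and 2, under the fold limit. The Set 1 call held with each array left out in turn (0.83 to 1.11). The Set 2 call was lost without KK-M replicate 1, KK-M replicate 3 or KK-F replicate 1 (0.51 to 0.62).

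Mir1931 read 6.83, 6.57 and 6.50 in KK-M and 5.84, 5.86 and 6.15 in C57-M, with the 3 arrays of each group apart. The difference was 0.68 (standard error 0.17, adjusted p = 0.0167), and in females it was 0.30 (interval -0.07 to 0.66). Without C57-M replicate 1, C57-M replicate 2 or KK-M replicate 1 the call was lost (0.58 to 0.64). Mir1931 lies within the span of the kinase gene Cdk17, which differed by 0.09 in Set 1.

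Mir5099 read 11.99, 11.82 and 11.79 in KK-M against 10.62, 11.47 and 11.61 in C57-M. C57-M replicate 1, an array that stood apart, was the lowest of the 12. With all arrays the difference was 0.63 (standard error 0.19, adjusted p = 0.0431), and without C57-M replicate 1 it was 0.32 and not called. The call was lost in 8 of 12 fits that left out an array, those without C57-M replicate 1, any C57-F array, any KK-M array or KK-F replicate 3 (0.32 to 0.67), and after quantile normalization it was 0.22. In females the sign was opposite, with 11.07 to 11.56 in KK-F under 11.72 to 11.85 in C57-F, and was not called (-0.45, adjusted p = 0.176).

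**Figure D3:**
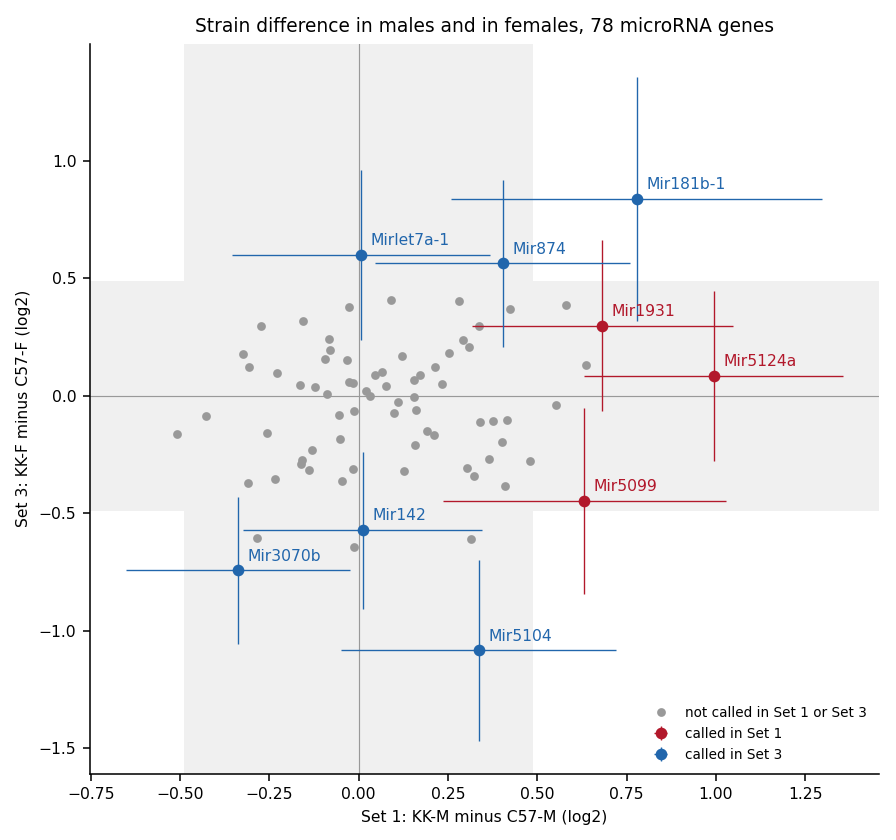
Strain difference in males (Set 1, horizontal axis) and in females (Set 3, vertical axis) of the 78 microRNA genes on the log2 scale. Grey bands mark differences under 1.4-fold, bars are 95% intervals from limma of the genes called in a Set, and the 3 genes called in males are not those called in females.

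Between the sexes, 2 members (2.56%) were called in KK/HlJ and 3 (3.85%) in C57BL/6 J, against 3.13% of all genes in Set 2 and 3.28% in Set 4. The arrays of the sexes lay apart for 14 members in Set 2 (17.9%, against 23.8% of all genes) and 13 in Set 4 (16.7%, against 18% of all genes). In Set 2, Mir5124a and Mir340 were higher in KK-M, the direction of 2.17% of all genes, while 0.963% were lower. In Set 4, Mir5104, Mir142 and Mir615 were lower in C57-M, as were 2.87% of all genes, and 0.407% were higher.

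Mir340 read 5.75, 5.93 and 6.80 in KK-M and 5.37, 5.35 and 5.35 in KK-F. The KK-F arrays were the lowest of the 12, and KK-M replicate 3 was the highest. The difference was 0.81 (standard error 0.23, adjusted p = 0.0294), and it fell to 0.49 without KK-M replicate 3. The call was lost without that array or any KK-F array (0.49 to 0.82). Its host Rnf130, an E3 ubiquitin ligase, differed by 0.33 in Set 2 (adjusted p = 0.124). Rnf130 was called in Set 1 (0.54, adjusted p = 0.0072) and for the interaction (0.65, adjusted p = 0.0297), where Mir340 was not (0.31 and 0.92).

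Mir615, which lies in the homeobox gene Hoxc5, read 3.90, 4.03 and 4.06 in C57-M and 4.40, 4.87 and 4.46 in C57-F. C57-M was the lowest group and lay below every other array. The difference in Set 4 was -0.58 (standard error 0.15, adjusted p = 0.0156), and it was lost without C57-M replicate 1 or C57-F replicate 2 (-0.53 to -0.43). In Set 1 the adjusted p was 0.0479 with a difference of 0.48, which lay under the fold limit of 0.49 on the log2 scale.

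The interaction, Set 1 minus Set 3, tests whether the strain difference itself differed between the sexes, and it was called for 5 members (6.41%), against 6.17% of all genes. All 5 were positive, as were the interactions of 5.28% of all genes, with 0.889% negative. For Mir5104 it was 1.42 (adjusted p = 0.0017, standard error 0.26), from a difference of 0.34 in males and -1.08 in females. Mir5099 had 1.08 (adjusted p = 0.0188), Mir5124a 0.91 (adjusted p = 0.0309), Mir615 0.76 (adjusted p = 0.0337) and Mir1927 0.63 (adjusted p = 0.038). The direction is relative to a shift of all genes. The median interaction of all 5399 genes was 0.14, and it became 0.00 with each array centred on its median, when Mir5104 and Mir5099 were called. After quantile normalization the median was -0.06, Mir5104 was called higher, and Mir152 and Mir1193 were called lower.

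Mir1927, called for the interaction alone, read 6.11, 6.17 and 6.19 in KK-M, 5.70, 5.87 and 5.81 in C57-M, 5.63, 6.00 and 5.72 in KK-F and 6.11, 5.85 and 6.20 in C57-F. The males did not overlap and the females did. The strain differences were 0.36 in males and -0.27 in females, neither called. The interaction was lost without any array except C57-M replicate 3, C57-F replicate 2 and KK-F replicate 2 (0.56 to 0.67).

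The interactions of the other genes depended on arrays in different measure. That of Mir5104 was called with each array left out in turn (1.29 to 1.68). That of Mir5099 was lost without KK-M replicate 1 or KK-F replicate 1 (0.95 to 1.02), and was 0.27 after quantile normalization. That of Mir5124a was lost without C57-M replicate 1, C57-F replicate 1, KK-M replicate 1 or 3, or KK-F replicate 1 (0.72 to 0.89). That of Mir615 was lost without C57-M replicate 1 or 2, C57-F replicate 2, KK-M replicate 2 or 3, or KK-F replicate 2 or 3 (0.61 to 0.79).

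The 66 genes called nowhere still had differences of some size. Over all 78 members, an unadjusted p under 0.05 was reached by 21 in Set 1, 14 in Set 2, 20 in Set 3 and 14 in Set 4 (26.9%, 17.9%, 25.6% and 17.9%), where 25.7%, 15.3%, 26.8% and 14.4% of all genes reached it. Median differences of the members were 0.08, 0.06, 0.00 and -0.07, beside 0.08, 0.07, -0.05 and -0.08 over all genes. In Set 1 the 95% interval lay wholly inside 1.4-fold for 31 of the 78 genes and in Set 3 for 29, so that for the rest a change of that size was within the interval or called. Mir18, of the miR-17 cluster, was the gene not called with the lowest Set 1 value, at -0.51 (adjusted p = 0.0781), and it was called with each array centred on its median (-0.58, adjusted p = 0.0492).

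A microRNA gene inside another gene on the same strand can share its primary transcript. Of the 78 genes, 34 lay inside a gene on the same strand and 4 inside a gene on the opposite strand only. Another 14 lay inside a gene whose relative strand was not in the tables, and 26 lay in no other gene. Positions came from RefSeq, but for Mir15a, Mir149, Mir151, Mir346 and Mir615, among the 34, the strand came from host pairs listed by hand. For 28 of the 34, the 26 hosts were tested themselves. Of these 26 hosts, 5 were higher in Set 1, 2 higher in Set 2 and 2 lower in Set 3. In Set 4, 1 was lower, and 4 were higher for the interaction. Over all genes tested, 5.39% were higher in Set 1, 2.17% higher in Set 2 and 8.09% lower in Set 3. The shares were 2.87% lower in Set 4 and 5.28% higher for the interaction.

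Mir5104 and Mir5124a were called together with their hosts. Zc3h12d, a CCCH zinc finger gene known from lymphocytes, read 5.60, 5.81 and 5.65 in KK-F and 6.12, 6.29 and 6.27 in C57-F. It fell by 0.54 in Set 3 (adjusted p = 0.00643) and by 0.53 in Set 4 (adjusted p = 0.00727), the same Sets as Mir5104. In males the host differed by -0.24 and Mir5104 by 0.34, neither called. The interaction of the host was 0.30 and not called.

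Gcnt2, which encodes an enzyme that branches blood group I chains, read 5.75, 6.19 and 6.10 in KK-M and between 5.29 and 5.53 on the 9 other arrays. It rose by 0.62 in Set 1 (adjusted p = 0.00252) and 0.58 in Set 2 (adjusted p = 0.0045), with an interaction of 0.63 (adjusted p = 0.0411), the same comparisons in which Mir5124a was called. The highest values of both lay on the 3 KK-M arrays, which restates the calls. Among these arrays, KK-M replicate 1 had the highest Mir5124a value and the lowest Gcnt2 value.

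Elsewhere hosts moved without a call for the microRNA gene. Rian, the noncoding host of Mir341 and Mir1188, rose by 0.94 in Set 1 (adjusted p = 7.23e-05), while Mir341 differed by 0.21 (interval -0.03 to 0.46) and Mir1188 by 0.17 (interval -0.16 to 0.50). Slit3, a guidance ligand that holds Mir218-2, rose by 0.85 in Set 1 and 0.67 in Set 2, whereas Mir218-2 differed by -0.32 and -0.19. Mtarc2 rose by 0.52 in Set 1, and its Mir1981 differed by 0.64 without a call (adjusted p = 0.079). Rnf213, the host of Mir1932, fell by 0.58 in Set 3, where Mir1932 differed by -0.07. For the interaction, Slit3 (0.75) and Rnf213 (0.55) were higher, and Mir218-2 (-0.50) and Mir1932 (0.17) were not called.

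**Figure D4:**
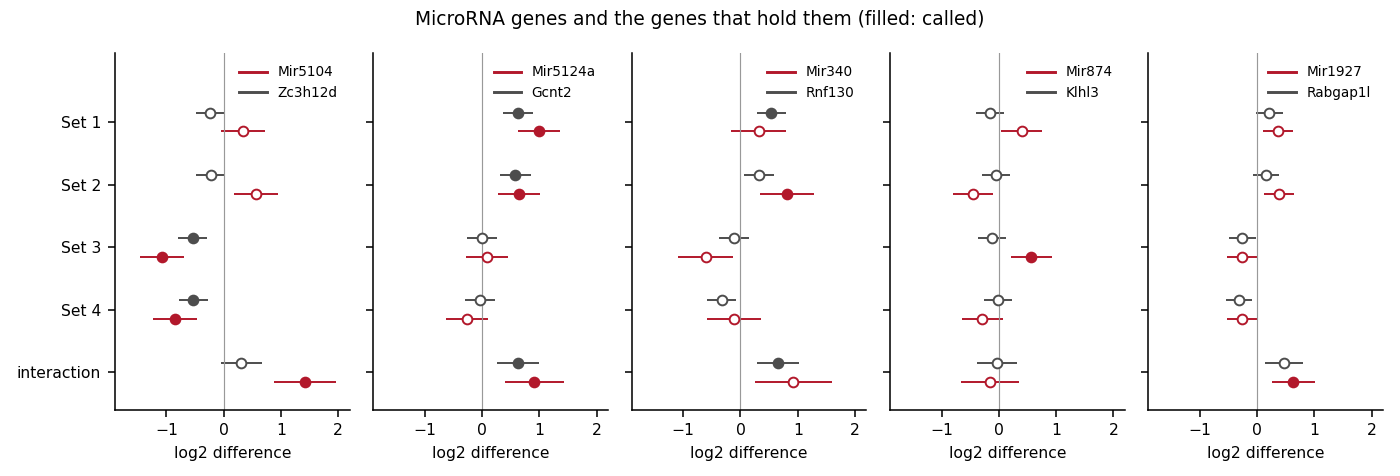
Log2 differences with 95% intervals from limma of 5 called microRNA genes (red) and of the genes that hold them (grey) in Sets 1 to 4 and for the interaction. Filled points were called. Mir5104 and Zc3h12d are both lower in Sets 3 and 4, Mir5124a and Gcnt2 are both higher in Sets 1 and 2 and for the interaction, and Klhl3 and Rabgap1l were not called where Mir874 and Mir1927 were.

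The Dlk1-Dio3 domain on chromosome 12 is an imprinted region whose microRNAs are expressed from the maternal copy. Of 42 of its microRNA genes on the array, 18 were among the 78 members, and Mir3070b was the only gene of the 18 called in a Set, against 11.7% of all genes in Set 3, where it was called, and 7.87% in Set 1. Median differences of the 18 were -0.02 in Set 1, 0.05 in Set 2, -0.03 in Set 3 and -0.05 in Set 4. Mir299a and Mir409 each had another probeset below the limit, with highest group means of 2.95 and 3.78. Neighbours of Mir3070b within 10 kb did not move alike. Mir3070a lies 561 bases away and differed by 0.02 in Set 3, Mir665 by -0.20 and Mir540 by 0.05, none of them called. The highest Set 1 value of the domain was that of Mir665, at 0.40 (interval 0.09 to 0.71), and the lowest that of Mir654, at -0.43.

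**Figure D5:**
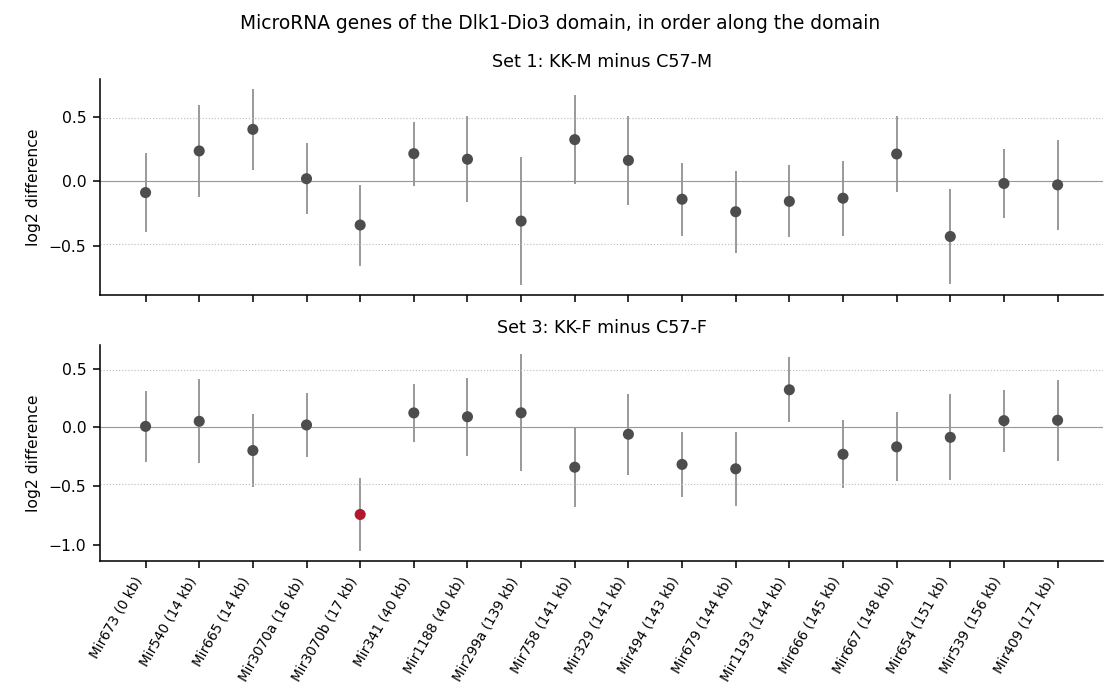
Strain differences with 95% intervals from limma of the 18 microRNA genes of the Dlk1-Dio3 domain in males (upper panel) and females (lower panel), in order along the domain with the distance from Mir673 in kilobases. Dotted lines mark 1.4-fold, and Mir3070b in females, at -0.74, is the single called gene (red).

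The islet-enriched microRNA genes among the members, Mir375, Mir7-1 and Mir212, were not called, in a tissue where islet genes differed between the strains. Of 22 genes on that list, 5 had values here under a single symbol. Mir132 and Mir153 of that list had highest group means of 3.19 and 3.42 and were not members. Mir375 read 7.10, 7.38 and 7.49 in KK-M and 6.89, 7.15 and 7.45 in C57-M, with wide overlap. It read 7.06, 6.98 and 6.93 in KK-F and 7.41, 7.30 and 6.89 in C57-F. Its difference was 0.16 in males (interval -0.17 to 0.48) and -0.21 in females (interval -0.54 to 0.11). Mir7-1, known from endocrine cells, differed by -0.17 and 0.04, and Mir212, a microRNA induced by cyclic AMP, by 0.34 and -0.11. Of 15 islet marker genes tested, 10 were higher in KK/HlJ in each sex and 1 was lower in females. Their mean log2 value was 7.39 to 7.47 in KK-M and 6.99 to 7.23 in KK-F, above 6.16 to 6.42 in C57-M and 6.37 to 6.48 in C57-F. Whether the Mir375 probeset can register a change of the islet share was not tested.

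Other microRNA families gave few calls. Of 15 microRNA genes listed for blood cells, 6 had values here under a single symbol, and the others are not thereby absent from the array. Mir142 and Mir181b-1 were members, called in opposite directions in Set 3. Mir451a, Mir144, Mir181a-1 and Mir146 had highest group means of 3.41, 2.06, 2.62 and 2.07 and were not members. The exocrine and epithelial genes Mir194-1, Mir152 and Mir148b were called in no Set, although Mir152 was higher in KK-F after quantile normalization (0.50, adjusted p = 0.0171). Mir15a and Mir16-1, which lie 55 bases apart in Dleu2, differed by 0.30 and 0.16 in Set 1 and by -0.31 and 0.00 in Set 3.

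Genes of microRNA processing and silencing were compared as the pathway the members depend on. Of 31 genes listed, 10 had values under a single symbol and 9 were tested: Drosha, Dicer1, Tarbp2, Ago2, Tnrc6c, Ddx5, Dis3l2, Pum2 and Tut7. Ddx5, a helicase that works with Drosha, was higher in the KK-M arrays than in those of C57-M (0.87, standard error 0.23, adjusted p = 0.0232) and for the interaction (1.24, adjusted p = 0.0295). It read 11.66 to 11.72 in KK-M and 10.06 to 11.25 in C57-M, with its lowest value on C57-M replicate 1. Drosha differed by 0.10 in Set 1 and -0.01 in Set 3, and Dicer1 by 0.28 and 0.02, and none of the 8 other genes was called.

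The hairpins of members were richer in G and C. RefSeq held a hairpin for 154 of the 172 microRNA genes, and its median GC content was 51.9% for 70 members and 45.8% for 84 genes below the limit. A GC content of 50% or more was found in 43 of the 70 (61.4%) and 29 of the 84 (34.5%). This is a description of what the level limit selected, and the part of probe composition in it was not tested.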

How the data were processed

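Pancreatic total RNA from 4 pools of 18 mice was hybridized to 3 arrays per pool (GeneChip Mouse Gene 2.0 ST). The authors deposited log2 values per probeset, made by robust multi-array average (RMA) in Partek Genomics Suite, and the build of the array annotation is not given in the sources used here. The number of arrays limits the precision. Gene symbols came from the platform annotation. Of the 16378 probesets with values here, 7358 had 1 symbol, 456 several and 8564 none. The 46 microRNA probesets with several symbols were not named.

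The limma package, version 3.58.1 (R 4.3.3), was used to fit group means to 5399 genes with a group mean of 4 or more, the probeset with the highest mean standing for a gene. Benjamini-Hochberg adjustment ran over 21596 tests for the Sets and 5399 for the interaction. The procedure was tested on simulated data with independent normal noise and changes planted in KK-M. Those data held no deviating array and no shift of all genes, so the effect of these on the calls was not tested there. Sequences and hosts came from RefSeq tables of GRCm38.p6, with the strand of some hosts taken from pairs listed by hand. The tools pandas 2.3.3 and matplotlib 3.10.9 were used in Python 3.11.15. Alternatives were other filters, a floor at 4, median centring, quantile normalization, other adjustments and variance models, a replicate block, every probeset on its own, and each array left out.

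Members and lists were chosen with earlier results of these data known. Named were all called members, the 10 highest, members of the islet and blood cell lists, genes next to the limit, and hosts and neighbours. Genes called under an alternative alone, and microRNA genes of the other lists, were named after their values were seen. The columns of the table were all used, and it holds no comparisons by the authors.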

Additional observations from a re-analysis of the deposited data

Results flagged for a closer look

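For 5 microRNA genes the strain difference of males and that of females differed by a test of that difference itself, the strain by sex interaction in limma. The interactions on the log2 scale were 1.42 for Mir5104, 1.08 for Mir5099, 0.91 for Mir5124a, 0.76 for Mir615 and 0.63 for Mir1927. For Mir5104, Mir5099, Mir615 and Mir1927 the mean of KK/HlJ lay above that of C57BL/6 J in males and below it in females. For Mir5124a the difference was 0.99 in males and 0.08 in females. All 5 have the sign of the median over all genes, 0.14, and with each array centred on its median the interactions of Mir5124a, Mir615 and Mir1927 were 0.77, 0.62 and 0.49 and no longer called. After quantile normalization only that of Mir5104 was called, at 1.29.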

How the results depend on the processing

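Members called numbered 3, 2, 6 and 3 in Sets 1 to 4, with 5 for the interaction and 0 called in the same direction in both strain comparisons, Sets 1 and 3. Of 19 called differences, 2 kept their call in every alternative that gave them a value, and 0 reversed. Over the settings other than leaving out 1 array, 159 of 212 values were still called. Counts that moved by over 1.5 times are given by setting, and the cause was not tested. With adjustment within each contrast they were 1 in Set 2 and 1 in both strain comparisons. With a group mean of at least 6 they were 1, 1 and 0 in Sets 2 to 4, with 2 for the interaction, as fewer genes entered. With a mean over 12 arrays of at least 4 Set 2 had 1, and with values below 4 set to 4 Sets 1 and 2 had 1 each. With a mean-variance trend Set 4 had 5 and both strain comparisons shared 1. With no moderation of the variances they were 1, 0, 2 and 0 in Sets 1 to 4 and 0 for the interaction, where in the fit used 21, 14, 20, 14 and 16 members had an unadjusted p under 0.05. Median centring left 2 for the interaction, and quantile normalization 3 for the interaction and 1 in Set 2. Leaving out both C57-M replicate 1 and KK-F replicate 1 gave 3 calls for the interaction and 0 in Set 2.

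When single arrays were left out in turn, counts ranged from 1 to 10 (Set 1), 0 to 3 (Set 2), 3 to 7 (Set 3), 2 to 6 (Set 4), 0 to 1 (both strain comparisons) and 2 to 9 (interaction), and the highest values of Set 1, Set 3, Set 4 and the interaction came without C57-M replicate 3. Over all genes, higher calls against lower calls numbered 291 against 134 (Set 1), 192 against 437 (Set 3), 22 against 155 (Set 4) and 285 against 48 (interaction). With median centring these were 212 and 179, 254 and 363, 39 and 88, and 163 and 96, and with quantile normalization 183 and 190, 300 and 332, 49 and 73, and 175 and 183. In Set 2 they were 117 and 52, then 81 and 63, then 65 and 73. Members called higher and lower in Set 4 went from 0 and 3 to 2 and 1 with median centring, where Mirlet7a-1 (0.62) and Mir409 (0.56) were higher.

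The replicate number did not pair the arrays throughout. Of 18 pairs with the same number, 2 had deviations correlated above 0.1 (-0.19 to 0.30), and 6 of 12 arrays correlated best with their own number. The value of 0.30, the highest of all pairs, joined C57-M replicate 1 and KK-F replicate 1, the arrays that stood apart. Whether arrays of the same number shared a batch was not tested. With the replicate block, the members called numbered 5, 2, 7 and 5 in Sets 1 to 4, with 7 for the interaction and 1 in both strain comparisons.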

Other observations

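Mir1929 lies in the autophagy gene Atg5, and its probeset holds the same 12 values as 1 other probeset, which has no symbol. It was called in no comparison with all arrays (interaction 0.80, adjusted p = 0.062). Without C57-M replicate 3 it was called in Set 1 (0.60, adjusted p = 0.0299), in Set 4 (-0.71, adjusted p = 0.0108) and for the interaction (0.99, adjusted p = 0.011). It was named after its values were seen.

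Leaving out C57-M replicate 3 raised the number of members called in Set 1 from 3 to 10 (12.8%). The share of all genes called went from 7.87% to 10.3%. The C57-M array that stood apart from its group was replicate 1, which that fit kept. The genes added were Mir181b-1 (1.17), Mir1981 (0.80), Mir3962 (0.79), Mir1929 (0.60), Mir5104 (0.60) and Mir331 (0.60), all higher in KK-M, and Mir18 (-0.64), which was lower. In that fit Mir181b-1 was called higher in KK/HlJ of both sexes, the only member called so in any fit that left out 1 array. These genes were named after their values were seen.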
